A study of Rattus norvegicus with 42 samples.

Results

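Kainate receptor subunits are the products of 5 genes, Grik1, Grik2, Grik3, Grik4 and Grik5, and every transcript carrying one of these symbols in the count table of neonatal rat hippocampus was taken, which gave 8 of 15516 transcripts. All 5 genes were listed, with 3 transcripts of Grik1, 2 of Grik3 and 1 of each other gene. All 8 transcripts passed the filter on low counts, and none was at 0 in any analysed animal. The RNA came from the hippocampi of male Sprague Dawley rat pups on postnatal day 10. On postnatal day 7 each pup had received an intraperitoneal dose of saline as vehicle (VEH), of phenobarbital at 75 mg/kg (PB) or of levetiracetam at 200 mg/kg (LEV), and tissue was taken after 72 h. PB and LEV are antiseizure medications. No transgene or deletion was involved, and each library is 1 animal. After the VEH animal marked as excluded by its label (animal 7) was set aside, 13 VEH, 14 PB and 14 LEV animals remained.

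Kainate receptors are glutamate-gated cation channels assembled from GluK subunits. GluK1, GluK2 and GluK3, encoded by Grik1, Grik2 and Grik3, can form channels on their own, whereas the high-affinity subunits GluK4 and GluK5, encoded by Grik4 and Grik5, work only in channels that also hold GluK1, GluK2 or GluK3. In the hippocampus these receptors are known for tuning transmitter release and slow excitatory currents, above all at the mossy fibre synapse between dentate granule cells and CA3 pyramidal cells, and for the seizures that kainate provokes.

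The sample codes had 2 forms, one for animals 1 to 6 of each treatment and the other for animals 7 to 14. The pups came in 2 orders, but no label ties an order to a form of code. This form was used as the batch. It divided the animals into 6 VEH, 6 PB and 6 LEV pups numbered 1 to 6, and 7 VEH, 8 PB and 8 LEV pups numbered 7 to 14. Totals ranged from 9499492 to 14488134 estimated counts per animal. VEH animal 1 went against its label as a male, with 0.0728 CPM (counts scaled to a common library size) of the Y-linked gene Eif2s3y, where every other analysed animal had at least 63.8. Results for Grik genes are therefore also given without this animal. The summed level of 6 choroid plexus markers (Ttr, Folr1, Kl, Kcnj13, Clic6 and Otx2) ranged from 3.11 to 4611 CPM in VEH, from 7.38 to 7326 in PB and from 4.44 to 5217 in LEV. The Pearson r of the list with the 5 Grik genes over the 41 animals lay between -0.34 and -0.04. It was taken on log2 CPM after the mean of each treatment and code form was removed. The hippocampal markers Prox1 (dentate granule cells), Bok (CA3), Wfs1 (CA1) and Neurod6 (pyramidal neurons) were above 0 in all 41 animals. Of 5 dentate granule markers chosen, 3 were in the count table, and Tdo2 among them was at 0 in 20 animals. A level above 0 does not measure how much of a field a dissection held.

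On rn6, Grik1 lies at chr11:27811954-28213540, Grik2 at chr20:53791428-54517692, Grik3 at chr5:143500441-143715547, Grik4 at chr8:46806147-47107918 and Grik5 at chr1:81885516-81946715. The start regions of Grik3 and Grik4 are shown because these genes varied in opposite directions from animal to animal, as given further on. They run from 250 bases before to 50 after the gene start in RefSeq on GRCr8, at chr5:143052192-143052491 on the plus strand for Grik3 and at chr8:52102014-52102313 on the minus strand for Grik4. Capitals mark the dinucleotide CG.
Grik3: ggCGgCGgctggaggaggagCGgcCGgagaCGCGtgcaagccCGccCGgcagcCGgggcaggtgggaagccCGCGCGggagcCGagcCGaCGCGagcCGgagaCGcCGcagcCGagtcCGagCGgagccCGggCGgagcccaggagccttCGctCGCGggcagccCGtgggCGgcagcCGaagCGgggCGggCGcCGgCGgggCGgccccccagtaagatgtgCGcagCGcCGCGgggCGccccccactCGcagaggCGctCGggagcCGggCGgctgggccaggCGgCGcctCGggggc
Grik4: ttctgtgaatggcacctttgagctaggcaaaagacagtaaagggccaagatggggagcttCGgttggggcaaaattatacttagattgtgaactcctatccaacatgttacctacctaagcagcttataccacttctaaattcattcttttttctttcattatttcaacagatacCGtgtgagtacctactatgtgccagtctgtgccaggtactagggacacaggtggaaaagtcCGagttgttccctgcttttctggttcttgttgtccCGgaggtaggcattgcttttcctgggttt
The Grik3 region held 49 CG and was 82.3% G or C, a share at percentile 99.6 of the 33469 RefSeq regions of this length. The Grik4 region held 4 CG and was 44.0% G or C, at percentile 22.0. The other 3 members lay between them, at 50.3% for Grik2, 58.7% for Grik1 and 69.0% for Grik5. The motif GGGCGG, searched on both strands, occurred 6 times in the Grik3 region and 2 times in that of Grik5, and was present in 33.1% of all regions. TATAAA, also searched on both strands, was not among the letters of any of the 5 windows and was present in 14.2% of all regions. These matches describe the letters in the window and are not binding sites.

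Neither drug changed a kainate receptor subunit past the study's limits (adj. p-value under 0.05 together with a 1.25-fold change or more) when all animals were used. Of the 8 transcripts, 0 passed in PB vs. VEH, where 0.605% of 13062 tested transcripts passed (edgeR quasi-likelihood test, Benjamini-Hochberg adjustment). In LEV vs. VEH 0 of 8 passed, beside 0% of all transcripts, and in PB vs. LEV 0 of 8 passed, beside 0.582%. DESeq2 also called 0 of 8 in each comparison. At an unadjusted p under 0.05 there were 2 of 8 in PB vs. VEH, 0 of 8 in LEV vs. VEH and 1 of 8 in PB vs. LEV, beside 20.2%, 5.84% and 19.6% of all transcripts. With the counts of a gene's transcripts added, 0 of 5 genes passed in each comparison, beside 0.674%, 0% and 0.608% of 12165 genes. With VEH animal 1 left out, again 0 of 8 were called in each comparison. In whole tissue, fewer cells of a type and less RNA per cell cannot be told apart.

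**Figure D1:**
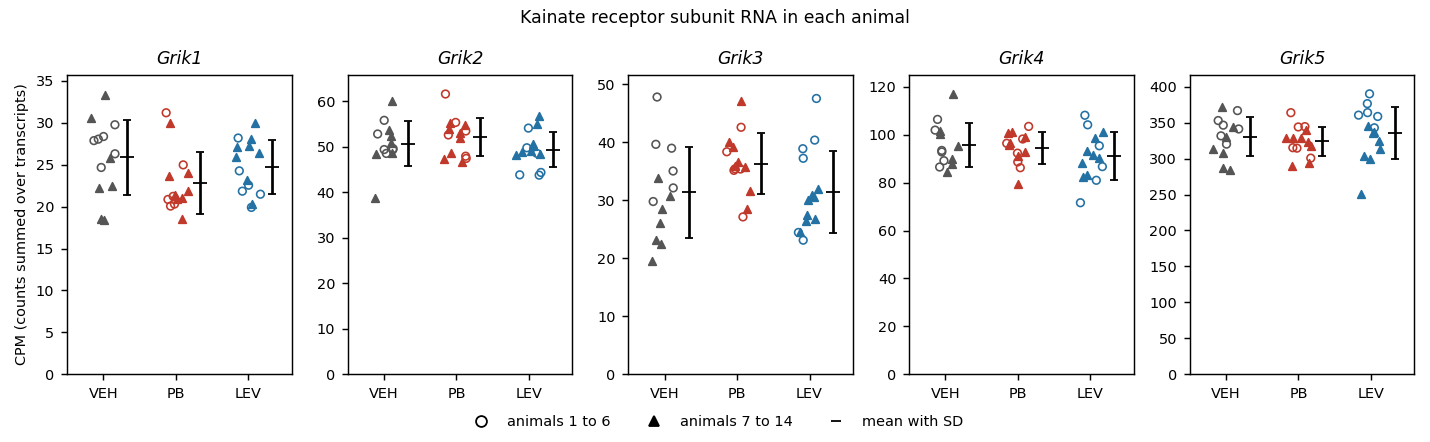
Level of each Grik gene in every animal, in CPM with the counts of a gene's transcripts added (linear axes from 0), for VEH, PB and LEV. Open circles are animals 1 to 6, triangles are animals 7 to 14, and the bars give the mean and SD over 13, 14 and 14 animals. The 3 treatments overlap for every gene, and the residual SD on the log2 scale was 0.26 for Grik3 and 0.11 to 0.22 for the other genes.

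Levels below are CPM with the counts of a gene's transcripts added. They were not divided by transcript length, so they are compared between animals for the same gene and not between genes. Among the subunits that form channels on their own, Grik1, which encodes GluK1, ranged from 18.4 over a median of 26.3 to 33.3 CPM in VEH. It ranged from 18.5 over 21.3 to 31.2 CPM in PB and from 19.9 over 25.1 to 29.9 CPM in LEV. The ranges overlapped almost entirely, although the PB animals were crowded near the bottom, with 12 of 14 under the average of the VEH animals of the same code form. The mean was 25.9 ± 4.50 CPM in VEH (SD, n = 13), 22.9 ± 3.70 in PB (n = 14) and 24.7 ± 3.24 in LEV (n = 14). On the log2 scale Grik1 differed by -0.18 in PB vs. VEH (SE 0.08, 95% interval -0.35 to -0.01, edgeR adj. p-value = 0.206). LEV vs. VEH gave -0.07 (SE 0.08, edgeR adj. p-value = 0.956). Within animals 1 to 6 the PB difference was -0.25 (edgeR adj. p-value = 0.296) and within animals 7 to 14 it was -0.11 (edgeR adj. p-value = 0.618). Without VEH animal 1 it was -0.17 over all animals (edgeR adj. p-value = 0.264).

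The counts of Grik1 were divided among 3 transcripts. Their estimates shared reads, since 123 of 126 transcript values were not whole (to 0.01 of a count) while the sum was whole in 42 of 42 animals. NM_001111117 held 47.2% ± 13.1 of the gene's counts in VEH (SD, n = 13), 54.8% ± 9.21 in PB (n = 14) and 48.3% ± 10.1 in LEV (n = 14). NM_001111114 held 41.1% ± 14.8, 33.5% ± 12.3 and 37.5% ± 7.69 in the same order, and NM_017241 held the rest, at 11.7% ± 10.9, 11.7% ± 9.43 and 14.2% ± 8.55. For each of the 3 transcripts the difference between any pair of treatment means was smaller than the SD within a treatment.

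NM_001111114 had the lowest p-value of the 3 Grik1 transcripts in PB vs. VEH. Its mean was 10.4 ± 3.69 CPM in VEH (SD, n = 13) and 7.71 ± 3.20 in PB (n = 14), a log2 difference of -0.43 (SE 0.19, 95% interval -0.80 to -0.05). The edgeR adj. p-value was 0.175, from an unadjusted p-value of 0.0258, and 11 of 14 PB animals were under the VEH average of the same code form. NM_001111117 differed by 0.03 (edgeR adj. p-value = 0.942) and NM_017241 by -0.26 with a 95% interval of -1.12 to 0.61 (edgeR adj. p-value = 0.792). NM_017241 was poorly measured, with 1 to 106 counts per animal and a residual SD of 1.47 on the log2 scale, against 0.22 for the sum of the gene.

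**Figure D2:**
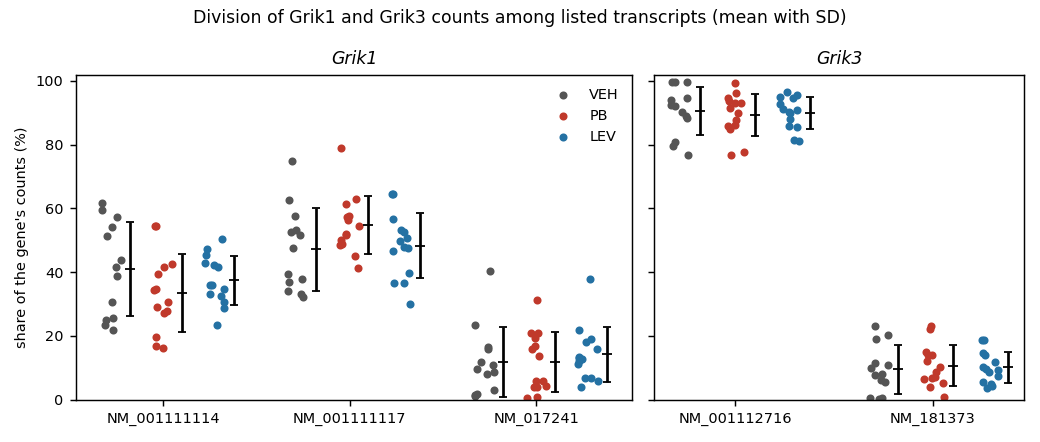
Share of a gene's estimated counts assigned to each listed transcript, in percent, for the 3 transcripts of Grik1 and the 2 of Grik3. Each point is 1 animal, and bars give mean and SD over 13 VEH, 14 PB and 14 LEV animals. NM_001111114 and NM_001111117 divide most of Grik1 in widely scattered proportions, whereas NM_001112716 holds at least 76.9% of Grik3 in every animal.

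Grik2 encodes GluK2, the main channel-forming subunit of the mossy fibre synapse. It ranged from 38.8 over a median of 49.6 to 60.1 CPM in VEH, from 46.6 over 52.8 to 61.6 CPM in PB and from 43.8 over 49.0 to 56.8 CPM in LEV. The 3 ranges lay on top of each other. The log2 difference was 0.04 in PB vs. VEH (95% interval -0.05 to 0.14, edgeR adj. p-value = 0.665) and -0.04 in LEV vs. VEH (95% interval -0.13 to 0.06, edgeR adj. p-value = 0.958). PB vs. LEV gave 0.08 (SE 0.05, edgeR adj. p-value = 0.351), with 11 of 14 PB animals over the LEV average of the same code form. As folds, the 95% interval for Grik2 ran from 0.964 to 1.10 in PB vs. VEH and from 0.912 to 1.04 in LEV vs. VEH, inside the fold limit of 1.25 on either side.

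Grik3, which encodes GluK3, had the largest log2 difference of the 5 gene sums in PB vs. VEH. Its level ranged from 19.5 over a median of 30.8 to 47.8 CPM in VEH, from 27.1 over 35.7 to 47.1 CPM in PB and from 23.1 over 30.3 to 47.5 CPM in LEV. The lowest PB animal was above the lowest VEH and LEV animals, while the highest animals of the 3 treatments were alike. The mean was 31.3 ± 7.87 CPM in VEH (SD, n = 13), 36.3 ± 5.21 in PB (n = 14) and 31.4 ± 7.12 in LEV (n = 14). The log2 difference was 0.24 in PB vs. VEH (SE 0.10, 95% interval 0.04 to 0.44, edgeR adj. p-value = 0.147), and 10 of 14 PB animals were over the VEH average of the same code form. In PB vs. LEV it was 0.22 (SE 0.10, edgeR adj. p-value = 0.185), and in LEV vs. VEH 0.02 (SE 0.10, edgeR adj. p-value = 0.989). Without VEH animal 1 the difference in PB vs. VEH was 0.26 (edgeR adj. p-value = 0.130).

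The transcript NM_001112716 carried most of Grik3, with 90.6% ± 7.61 of its counts in VEH, 89.3% ± 6.53 in PB and 89.9% ± 4.98 in LEV (SD, n = 13, 14 and 14). It differed by 0.22 on the log2 scale in PB vs. VEH (SE 0.11, unadjusted p-value = 0.0454, edgeR adj. p-value = 0.234) and by 0.21 in PB vs. LEV (edgeR adj. p-value = 0.236). The minor transcript NM_181373 had 1 to 100 counts per animal. Its log2 difference of 0.46 in PB vs. VEH had a 95% interval of -0.32 to 1.24 (edgeR adj. p-value = 0.545).

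**Figure D3:**
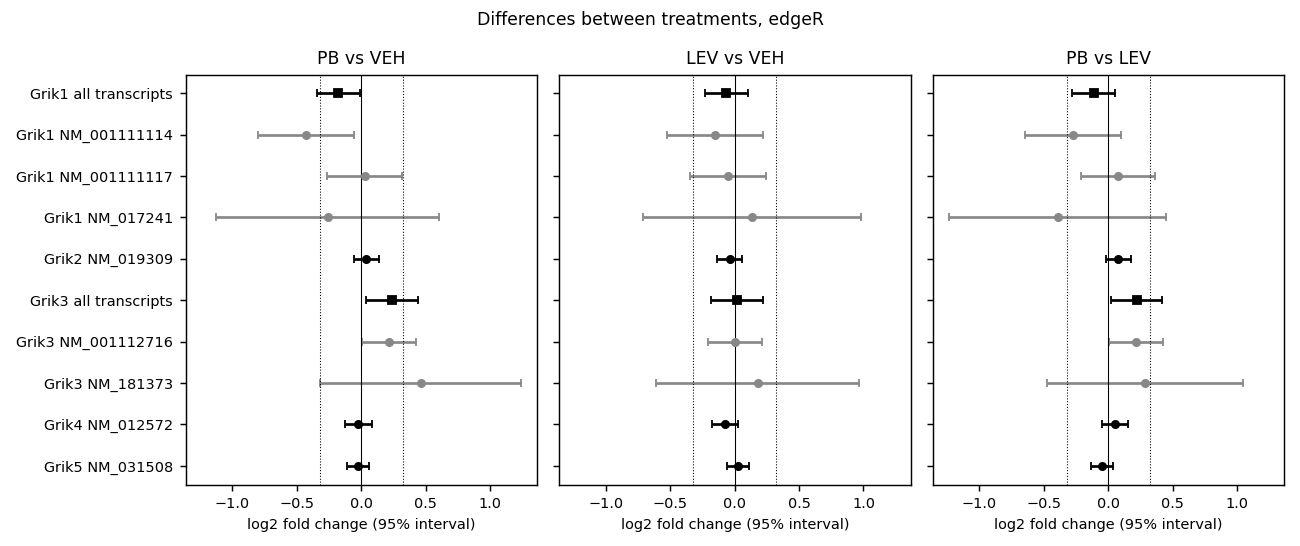
Log2 fold changes of the Grik genes in PB vs. VEH, LEV vs. VEH and PB vs. LEV, with 95% intervals from edgeR. Squares are sums over a gene's transcripts and circles single transcripts, in grey where the gene has several. Dotted lines mark a fold of 1.25 either way. The intervals of Grik2, Grik4 and Grik5 lie inside these lines, and the interval of Grik3 in PB vs. VEH runs from 0.04 to 0.44.

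Each set of animals was then fitted alone, and Grik3 passed the limits in PB vs. VEH in animals 7 to 14. There, VEH had 19.5, 22.4, 23.2, 26.0, 28.5, 30.8 and 33.8 CPM, and PB had 28.5, 31.5, 35.7, 35.8, 36.6, 39.2, 40.1 and 47.1 CPM. In 6 of 8 PB animals Grik3 was above the highest VEH animal. LEV ranged from 24.5 over 28.8 to 31.9 CPM, and the same 6 PB animals were above all LEV animals. Within this set Grik3 rose in PB vs. VEH by 0.48 on the log2 scale (SE 0.10, 95% interval 0.27 to 0.69), with means of 36.8 ± 5.61 and 26.3 ± 5.03 CPM (SD, n = 8 and n = 7). The edgeR adj. p-value was 0.00949, and 1.44% of 12169 genes passed the limits in this set. NM_001112716 gave 0.48 (edgeR adj. p-value = 0.0234), and it was the 1 of 8 transcripts past the limits in this set, beside 1.29% of all transcripts. With each of the 23 animals of the set left out in turn, Grik3 passed in 23 of 23 fits of PB vs. VEH, at 0.42 to 0.55. The highest edgeR adj. p-value was 0.0273, without VEH animal 11. Of these fits, 8 left out a LEV animal, which is not in this comparison, and gave 0.486 to 0.487. Only the fits without a VEH or a PB animal bear on how the result rests on single animals. In PB vs. LEV the difference was 0.36 (SE 0.10, edgeR adj. p-value = 0.0592) and in LEV vs. VEH 0.12 (SE 0.10, edgeR adj. p-value = 0.955), where 0.551% and 0.0411% of genes passed.

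In animals 1 to 6 the direction was not seen. Grik3 ranged from 29.8 over 37.0 to 47.8 CPM in VEH, from 27.1 over 35.4 to 42.6 CPM in PB and from 23.1 over 38.0 to 47.5 CPM in LEV, so the PB animals fell within or below the VEH range. The log2 difference in PB vs. VEH was -0.06 (SE 0.15, 95% interval -0.37 to 0.25, edgeR adj. p-value = 0.914), where 0.172% of genes passed the limits, and -0.04 without VEH animal 1. The test of the difference between the sets gave 0.55 for Grik3 (SE 0.19, 95% interval 0.17 to 0.92, unadjusted p-value = 0.00502). Its edgeR adj. p-value of 0.229 did not pass, and 0.0822% of 12165 genes did. Without VEH animal 1 it gave 0.53 (edgeR adj. p-value = 0.283). At an unadjusted p under 0.05 the difference between the sets was found for 1 of 5 genes in PB vs. VEH, 1 of 5 in LEV vs. VEH and 1 of 5 in PB vs. LEV, beside 11.1%, 13.3% and 7.23% of all genes. The VEH mean was 37.2 CPM in animals 1 to 6 and 26.3 in animals 7 to 14, while the PB means were 35.7 and 36.8 CPM.

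**Figure D4:**
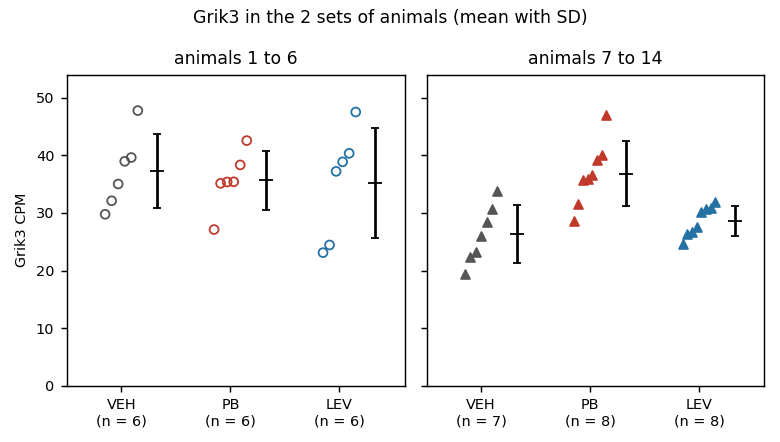
Grik3 in CPM (linear axis from 0) in animals 1 to 6 and in animals 7 to 14, with 1 point per animal in ascending order and bars for mean and SD. In animals 7 to 14, 6 of 8 PB animals lie above the highest VEH animal at 33.8 CPM, and in animals 1 to 6 none of 6 does so against 47.8 CPM.

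Of 15 marker lists of cell types, 8 had at least 1 marker past an adj. p-value of 0.05 in PB vs. VEH (edgeR), and 7 had none. At this limit 1.93% of all transcripts were higher and 3.46% lower. The markers were tested as sums per gene, and the share over all genes at this limit is not given here. Of 7 interneuron markers, 4 were lower in PB vs. VEH at an adj. p-value under 0.05 and 0 higher, and their summed level in animals 7 to 14 ranged from 383 to 506 CPM in PB and from 446 to 620 CPM in VEH. The 4 CA1 markers summed to 406 to 518 CPM in PB and to 475 to 600 CPM in VEH of that set, and over all animals 1 of 4 was lower and 0 higher. Of the 4 thalamus markers, 2 were higher over all animals and 0 lower. The 4 summed to 43.1 to 61.0 CPM in PB and to 37.4 to 42.9 CPM in VEH of that set. Of 4 pyramidal neuron markers 2 were lower over all animals and 0 higher, with sums of 2594 to 3349 CPM in PB and 3296 to 4395 CPM in VEH of that set. In skeletal muscle all 3 tested markers were lower over all animals, at a median log2 difference of -2.19. The sum over the 4 listed markers was 5.76 to 11.8 CPM in PB and 9.31 to 13.2 CPM in VEH of that set, which overlap. In animals 1 to 6 it was 9.18 to 13.3 CPM in PB, 22.6 to 34.4 CPM in VEH and 21.1 to 41.8 CPM in LEV. The lists of CA2, astrocytes and mature oligodendrocytes each had 1 lower marker and 0 higher. Of the markers in these 8 lists, those at 0 in some animals were Ckm (26 animals), Myh4 (1) and Atp2a1 (1), all of muscle. The r of these lists with Grik3 was taken after the mean of each treatment and code form was removed. It therefore holds no difference between treatments. Over the 41 animals this r was 0.60 for CA1, 0.11 for CA2, -0.01 for interneurons, -0.25 for pyramidal neurons, -0.28 for muscle, -0.32 for thalamus and -0.40 for both astrocytes and mature oligodendrocytes. Apart from CA1, the part of these cells in the Grik3 difference was not tested. With the CA1 markers as a covariate Grik3 differed by 0.25 in PB vs. VEH over all animals (edgeR adj. p-value = 0.0629), beside 0.24 without it.

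Neither high-affinity subunit passed the test in any comparison. Grik4, which encodes GluK4, ranged from 84.5 over a median of 93.4 to 117 CPM in VEH, from 79.5 over 96.1 to 103 CPM in PB and from 71.6 over 90.8 to 108 CPM in LEV. The ranges overlapped throughout. The log2 difference was -0.02 in PB vs. VEH (95% interval -0.12 to 0.08, edgeR adj. p-value = 0.858) and -0.07 in LEV vs. VEH (95% interval -0.17 to 0.03, edgeR adj. p-value = 0.906). Grik5, which encodes GluK5, ranged from 285 over 332 to 372 CPM in VEH, from 290 over 326 to 364 CPM in PB and from 250 over 340 to 390 CPM in LEV. It had the smallest residual SD of the 5 genes, at 0.11 on the log2 scale. Its log2 difference was -0.02 in PB vs. VEH (95% interval -0.11 to 0.06, edgeR adj. p-value = 0.805) and 0.03 in LEV vs. VEH (95% interval -0.06 to 0.11, edgeR adj. p-value = 0.973). As folds, the 95% intervals in PB vs. VEH ran from 0.918 to 1.06 for Grik4 and from 0.926 to 1.04 for Grik5. Within animals 1 to 6, Grik5 averaged 330 CPM in the 6 PB and 365 CPM in the 6 LEV animals, and within animals 7 to 14 the means were 319 and 314 CPM. In animals 1 to 6 this gave a log2 difference of -0.15 in PB vs. LEV (SE 0.05, edgeR adj. p-value = 0.122).

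Between the forms of code, Grik3 and Grik5 differed in the fit over all treatments. Grik3 was lower in animals 7 to 14 by a log2 difference of -0.25 (SE 0.08, edgeR adj. p-value = 0.0180) and Grik5 by -0.12 (SE 0.03, edgeR adj. p-value = 0.00507). These values average over treatments that were not alike. From animals 1 to 6 to animals 7 to 14, mean Grik3 went from 37.2 to 26.3 CPM in VEH, 35.7 to 36.8 in PB and 35.2 to 28.6 in LEV. Mean Grik5 went from 343 to 320 CPM in VEH, 330 to 319 in PB and 365 to 314 in LEV. At an adj. p-value under 0.05, 30.9% of all genes differed between the forms. For Grik1, Grik2 and Grik4 the difference was 0.00, 0.01 and 0.01, with edgeR adj. p-values of 0.829 to 0.970. This contrast was added after the data were seen, and what the forms of code stand for cannot be told apart from litter, order or handling.

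From animal to animal, Grik3 and Grik4 varied in opposite directions. After the mean of each treatment and code form was removed, their log2 CPM had a Pearson r of -0.69 and a Spearman rho of -0.59 over 41 animals. With the 2 animals farthest from the median of Grik3 left out, r was -0.61. It was -0.73 in animals 1 to 6 (n = 18) and -0.63 in animals 7 to 14 (n = 23), and -0.79 in VEH, -0.45 in PB and -0.73 in LEV. Of 12165 genes, 0.0411% had a lower r with Grik3 than Grik4 had. Grik1 and Grik4 had an r of -0.49 (rho -0.35). The other 8 pairs of subunits had r between -0.27 and 0.31. All points share a library and its depth, and no p-value is given. The start regions printed above are those of Grik3 and Grik4. Whether their letters have any part in this variation was not tested.

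**Figure D5:**
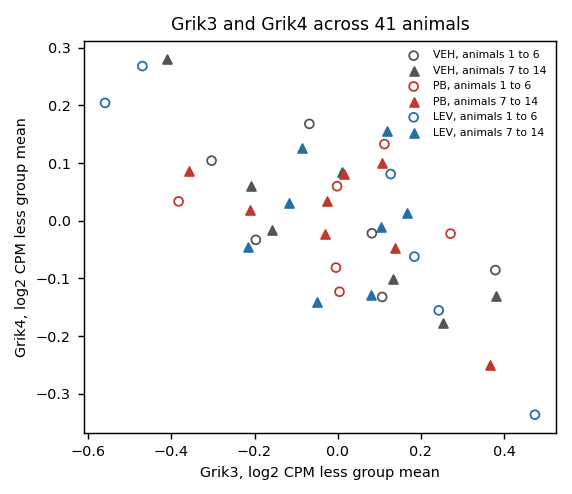
Log2 CPM of Grik3 (x axis) and Grik4 (y axis) in the 41 animals, each less the mean of its treatment and code form, coloured by treatment with open circles for animals 1 to 6 and triangles for animals 7 to 14. Animals with more Grik3 had less Grik4 (Pearson r -0.69), and every treatment contributes to the slope.

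Grik3 and Grik4 had r of opposite sign with the lists of CA1 and dentate granule markers. Each r was again taken after the mean of each treatment and code form was removed. Over the 41 animals the r of Grik3 was 0.60 with the mean of the 4 CA1 markers. It was -0.51 with that of the 2 tested dentate granule markers, Prox1 and C1ql2. For Grik4 these values were -0.49 and 0.45. Single CA1 markers differed among themselves, since the r of Grik3 was 0.32 with Wfs1, 0.11 with Pou3f1 and -0.36 with Fibcd1. For the other fields the list values were closer to 0, at -0.13 with CA3, 0.11 with CA2 and -0.25 with pyramidal neurons for Grik3, and 0.37, -0.34 and 0.27 for Grik4. The CA3 markers did not vary together, since the r of Grik4 was 0.59 with Bok and 0.32 with Nectin3 but -0.30 with Coch, and that of Grik3 was -0.51, -0.28 and 0.55. Among the pyramidal neuron markers the r of Grik4 was 0.50 with Neurod6 and -0.27 with Nrgn. The share of each hippocampal field in a dissection was not measured, and its part in these relations was not tested.

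The genes whose level most resembled that of each subunit, by Pearson r over the 41 animals after the same removal of means and among 12165 genes, were as follows. Grik3 was most like Atp2b4 (r 0.82), a plasma membrane calcium pump, Tenm3 (0.81), a teneurin that guides wiring between hippocampal fields, and Cntnap4 (0.80), a neurexin-like protein. In PB vs. VEH over all animals none of the 3 passed, with log2 differences of 0.34 for Atp2b4 (edgeR adj. p-value = 0.150), 0.25 for Tenm3 (edgeR adj. p-value = 0.0853) and 0.02 for Cntnap4 (edgeR adj. p-value = 0.914). In animals 7 to 14 alone the values were 0.50, 0.31 and 0.16 (edgeR adj. p-values 0.0488, 0.0440 and 0.357), and in animals 1 to 6 alone 0.12, 0.15 and -0.15 (edgeR adj. p-values 0.885, 0.718 and 0.628). Grik4 was most like Cpne4 (0.75), Mas1 (0.74), a receptor of the angiotensin system, and Sulf2 (0.74), a sulfatase of heparan sulfate. Grik5 had the closest neighbours, Adgrb2 (0.89), Agap3 (0.86) and Arf5 (0.85). Grik1 was most like Usp29 (0.71), Esyt2 (0.68) and Ubr3 (0.66), and Grik2 like Nrg1 (0.72), Gabrq (0.71), a GABA-A receptor subunit, and Zcchc12 (0.69).

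Auxiliary subunits and other partners of kainate receptors were taken as a list. Of its 19 genes, 18 were listed and tested, with 24 transcripts, and Senp1 was not analysed here. No partner passed both limits in any of the 3 comparisons (0 of 24 each). At an adj. p-value under 0.05 alone, 1 of 24 was higher and 1 lower in PB vs. VEH, beside 1.93% higher and 3.46% lower among all transcripts. Camk2a, the alpha subunit of the calcium and calmodulin-dependent kinase II, fell by 0.26 on the log2 scale, from 496 ± 72.9 CPM in VEH (SD, n = 13) to 420 ± 77.0 in PB (n = 14; SE 0.08, edgeR adj. p-value = 0.0364), and 13 of 14 PB animals were under the VEH average of the same code form. Klhl17, a kelch protein known as actinfilin that targets GluK2 for degradation, rose by 0.17, from 20.1 ± 2.05 to 22.5 ± 2.12 CPM (SE 0.05, edgeR adj. p-value = 0.0434). Between the drugs neither gene passed. PB vs. LEV gave -0.08 for Camk2a (edgeR adj. p-value = 0.583) and 0.13 for Klhl17 (edgeR adj. p-value = 0.115). The median log2 difference of the 24 transcripts in PB vs. VEH was -0.03, beside 0.00 over all transcripts.

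The auxiliary subunits Neto1 and Neto2, which slow and shape kainate receptor currents, had log2 differences of opposite sign in PB vs. VEH that did not pass the test. Neto1 had 190 ± 24.4 CPM in VEH and 174 ± 16.9 in PB (SD, n = 13 and n = 14), a log2 difference of -0.11 (edgeR adj. p-value = 0.179). Neto2 had 38.2 ± 3.23 and 41.5 ± 3.98 CPM, a log2 difference of 0.12 (edgeR adj. p-value = 0.172). The largest fall in the list in PB vs. VEH belonged to a transcript of Snap25, NM_001270576, at -0.27 (SE 0.27, edgeR adj. p-value = 0.624). Snap25 is a SNARE protein of synaptic vesicle fusion. In PB vs. LEV the 2 lower transcripts at an adj. p-value under 0.05 were NM_001270575 and NM_030991 of Snap25, which held the same value in every animal and count as 1 measurement (-0.18, edgeR adj. p-value = 0.0236), beside 2.78% of all transcripts lower. The largest fall of that comparison was that of NM_001270576, at -0.33 (edgeR adj. p-value = 0.524). In LEV vs. VEH 0 of 24 passed. At an unadjusted p under 0.05, 3 of 24 transcripts were higher and 6 lower in PB vs. VEH, 0 higher and 1 lower in LEV vs. VEH, and 3 higher and 3 lower in PB vs. LEV, beside 20.2%, 5.84% and 19.6% of all transcripts in either direction. The 2 Snap25 transcripts with the same values are both counted among the 6 lower in PB vs. VEH and the 3 lower in PB vs. LEV. In animals 1 to 6 alone, 1 of the partner transcripts passed both limits in LEV vs. VEH, that of Adarb2 at -0.37 (edgeR adj. p-value = 0.0231), beside 1.3% of all transcripts. Over all animals in LEV vs. VEH the lowest value was that of Camk2a, at -0.18 (edgeR adj. p-value = 0.806), and the highest that of NM_001270576, at 0.06 (edgeR adj. p-value = 0.989).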

How the data were processed

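Hippocampal RNA of 42 pups was sequenced, 1 library per animal. The authors aligned reads to rn6 with STAR 2.7.3a and deposited estimated counts per RefSeq transcript from the Partek E/M algorithm, before normalization, in which a read shared by several transcripts can be divided among them. Their table of comparisons (p-values, fold changes and group means) was not used.

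Estimated counts were rounded, and edgeR 4.0.16 under R 4.3.3 was used (TMM, filterByExpr, glmQLFit and glmQLFTest) with 1 model of treatment and form of sample code, with Benjamini-Hochberg adjustment over all 13062 transcripts tested or, with counts added per symbol, all 12165 genes. CPM were scaled to effective library sizes of 9588079 to 13786159, so a gene at 1 CPM rests on about 10 to 14 counts. Log2 CPM for correlations used a prior count of 2. The script was tested on simulated counts.

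The members, lists and rules were chosen with earlier results of these data known. Named genes are all Grik transcripts, partners past a limit, Neto1, Neto2 and the largest rise and fall of each comparison, and the 3 genes most like each subunit. The values of 1 marker and 1 partner that fall under these rules are not reported here. DESeq2 1.42.0, other filters, scalings and batch terms, each set of animals alone and each animal left out were tried. Levels per transcript length were not computed, since no transcript lengths were used here. Each litter gave 1 pup to each treatment, so animals of different treatments share litters, but no label gives an animal's litter. Whether the animal number marks it is not known (10 of 40 pairs with the same number had r over 0.1), so litter was not modelled.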

Additional observations from a re-analysis of the deposited data

Results flagged for a closer look

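The effect of treatment differed between animals 7 to 14 and animals 1 to 6 at an unadjusted p under 0.05 for 1 of 5 genes in each comparison, beside 11.1% of all genes in PB vs. VEH, 13.3% in LEV vs. VEH and 7.23% in PB vs. LEV, and none of the 5 passed after adjustment over all genes (edgeR). In PB vs. VEH the log2 difference between the sets was 0.55 for the Grik3 sum (edgeR adj. p-value = 0.229) and 0.57 for its transcript NM_001112716 (edgeR adj. p-value = 0.252). In LEV vs. VEH it was 0.34 for the Grik1 sum (edgeR adj. p-value = 0.363). In PB vs. LEV it was 0.18 for the Grik5 sum (edgeR adj. p-value = 0.667) and 0.17 for NM_031508, its only transcript (edgeR adj. p-value = 0.723). The transcript and the gene of Grik5 are the same counts in 2 fits.

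The excluded VEH animal (animal 7) held more Grik3 and Grik5 than any of the 41 analysed animals. Its Grik3 level was 56.6 CPM, of which NM_001112716 gave 56.1, beside a highest value of 47.7 among the others. Its Grik5 level was 536 CPM, beside a highest value of 389. Its Grik1 sum of 14.5 CPM was below that of all 41. These CPM were scaled over all 42 animals. The paper excluded this animal because its average and genomic coverage were far from those of the other samples. It was labelled male, but its Eif2s3y level, scaled to the library total, was 9.64 CPM. Apart from VEH animal 1, the other animals had at least 63.8 CPM. By number it belongs to animals 7 to 14, the set in which Grik3 passed the limits in PB vs. VEH with this animal left out.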

How the results depend on the processing

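No member passed both limits in PB vs. VEH under 16 of 17 alternatives, and 1 did, NM_001112716, in animals 7 to 14 alone. In LEV vs. VEH and PB vs. LEV 0 passed under all 17, and 0 passed in each of the 41 fits that left out an animal. With the animal number as a replicate block, 0 members were called in each comparison, and the log2 difference of the Grik3 sum in PB vs. VEH was 0.25. Same-numbered animals correlated between -0.33 and 0.33, and 3 of 41 correlated best with their own number.

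Partner counts moved without the fold limit, to 2 (adj. p-value under 0.05) and 5 (under 0.1) in PB vs. VEH and to 2 and 2 in PB vs. LEV. The 5 include the 2 Snap25 transcripts that held the same values, and in PB vs. LEV those 2 make up both counts. In animals 1 to 6 alone 1 partner was called in LEV vs. VEH, Adarb2, at -0.37 (edgeR adj. p-value = 0.0231), beside 1.3% of all transcripts.

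Signs that turned belonged to log2 differences that had not passed. In animals 1 to 6 alone they were, in PB vs. VEH, -0.094 for NM_001112716 and -0.060 for the Grik3 sum, in LEV vs. VEH -0.093 and -0.075 for the same, and in PB vs. LEV -0.00077 for NM_001112716 and 0.0022 for the Grik1 sum. In animals 7 to 14 alone they were, in LEV vs. VEH, 0.053 for NM_001111114, 0.14 for NM_001111117, -0.020 for NM_017241, 0.087 for the Grik1 sum, 0.011 for Grik2 and -0.028 for Grik5, and in PB vs. LEV -0.092 for NM_001111117 and 0.024 for Grik5. With all 14 VEH animals, LEV vs. VEH gave -0.11 for NM_001112716, -0.077 for the Grik3 sum and -0.043 for Grik5. With CA1 markers as a covariate it gave -0.020 for NM_001112716 and -0.00851 for the Grik3 sum, and without the batch term -0.016 for NM_001112716. Leaving out 1 animal gave, in PB vs. VEH, -0.032 to 0.078 for NM_001111117, -0.48 to 0.12 for NM_017241 and -0.037 to 0.0052 for Grik4, and in LEV vs. VEH -0.024 to 0.49 for NM_017241, -0.047 to 0.052 for NM_001112716 and -0.028 to 0.069 for the Grik3 sum. The cause was not tested. Chosen after seeing the data were the CA1 covariate and the fits that left an animal out of the gene sums, out of animals 7 to 14, or VEH animal 1 out of animals 1 to 6. Levels per transcript length were not run. The low counts of NM_017241 and NM_181373 limit what could be detected for them.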
